A study of Mus musculus with 15 samples.

Results

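The genes described here are 10 members of the matricellular group and its close matrix partners in mouse C2C12 myotubes: Tnc, Postn, Thbs1, Thbs2, Sparc, Spp1, Fn1, Ctgf, Cyr61 and Mgp. They were taken by symbol from a table of 42807 gene symbols, and all 10 were present and passed the low-count filter that left 14461 genes for testing. C2C12 is an established mouse myoblast line that fuses into contracting myotubes when serum is lowered. After 6 days of differentiation the cultures were left non-treated, given 0.1% DMSO as vehicle, or given the peony and licorice decoction Jakyak-gamcho-tang, abbreviated JGT, at a dose of 20, 100 or 500 µg/mL. Exposure lasted 24 h, and each of the 5 groups has 3 libraries. The highest dose was chosen by the submitters as the dose leaving 80% of myotubes viable. No group in the labels received dexamethasone, although the title of the series names it. From the DMSO in the JGT stock, the medium would contain 0.004% at JGT 20, 0.02% at JGT 100 and 0.1% at JGT 500, so the vehicle matches the top dose. The 6 controls and the 9 JGT libraries carry separate series of sample codes, so JGT against either control cannot be told apart from a contrast of code series. The 3 doses share a series but differ in the DMSO from the stock. Nothing in the labels says that replicates were separate cultures, and the p-values then reflect only library-to-library spread, which may be technical.

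Matricellular proteins are secreted into the extracellular matrix but mainly signal rather than bear load: they bind integrins, syndecans, growth factors and matrix proteins, and loosen or redirect cell adhesion. Most are made in large amounts in embryonic and healing tissue and at low levels in resting adult muscle, where injury, overload and fibrosis bring them back. Fibronectin, the product of Fn1, is the fibrillar scaffold on which several of them act and is included for that reason. Their transcription is classically controlled by TGF-beta, by the mechanically regulated YAP and TAZ co-activators acting through TEAD factors, and by serum response factor.

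Library totals ran from 26012844 to 36854199 counts with a median of 29613890, and the biological coefficient of variation of the fit was 5.31%. Myotube markers summed to between 18184 and 20431 CPM, that is, counts scaled to a common library size, in the 15 libraries. Macrophage markers summed to at most 2.50 CPM, endothelial markers to at most 1.99 CPM and adipocyte markers to at most 0.179 CPM, and Emcn and Cidec were at 0 in every library. Replicate 2 of JGT 500 stood apart: leaving it out raised the genes called between JGT 500 and JGT 100 from 1309 higher and 1544 lower to 2339 higher and 2650 lower. Without it the 10 genes gave the same counts of calls in all 3 comparisons of JGT 500. These are bulk libraries, so fewer cells of a type and less RNA per cell cannot be told apart.

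The 10 transcripts differed widely in level per length. In vehicle libraries Fn1 was the most abundant, at 890 ± 11.7 CPM per kb of exon (SD, n = 3), followed by the collagen-binding glycoprotein gene Sparc at 719 ± 6.05 and the osteopontin gene Spp1 at 655 ± 21.6 CPM per kb. Thrombospondin 1 (Thbs1, 338 ± 6.12 CPM per kb) and matrix Gla protein (Mgp, 268 ± 6.80) formed a middle pair. Tenascin-C (Tnc, 108 ± 1.83), Cyr61 (96.2 ± 1.53) and Ctgf (84.6 ± 3.39) lay lower, and periostin (Postn, 30.6 ± 1.17) and thrombospondin 2 (Thbs2, 24.6 ± 0.552) were the least abundant. No neighbours in that order overlapped among the vehicle libraries. The order depended on the length used: with the longest annotated transcript in place of all exons, Mgp passed Thbs1 and Ctgf passed Cyr61.

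At JGT 500 the order changed at both ends. Spp1 stood at 878 ± 17.4 CPM per kb (SD, n = 3) and overlapped Fn1 at 854 ± 24.3, although by longest transcript Spp1 remained in the third place behind Fn1 and Sparc. Tnc moved from the sixth place to 36.5 ± 1.63 CPM per kb, where its range overlapped Ctgf (37.8 ± 3.37). Thbs2, at 42.2 ± 1.29, overlapped Ctgf from above and was no longer the least abundant. Postn, at 22.3 ± 1.23 CPM per kb, took the last place.

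**Figure D1:**
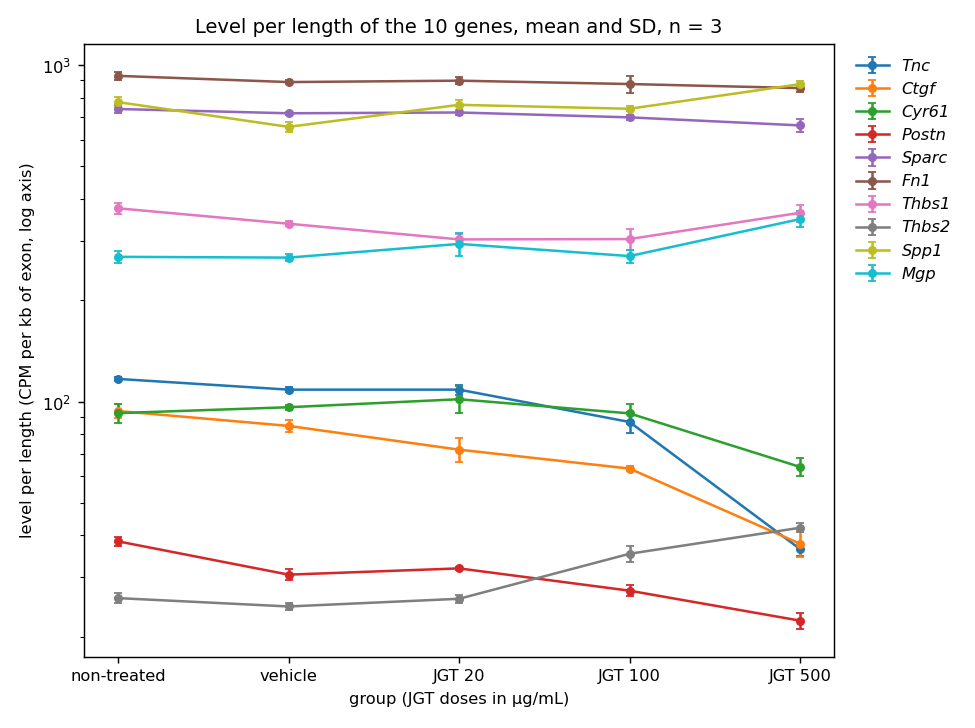
Level per length of the 10 genes (vertical log axis, CPM per kb of exon) in the 5 groups, as the mean of 3 libraries with the SD as a bar; lines only join the points of a gene. Tnc falls from 108 CPM per kb in vehicle to 36.5 at JGT 500 while Thbs2 climbs from 24.6 to 42.2, and their lines cross.

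At JGT 500, 8 of the 10 transcripts differed from vehicle, in both directions. Tnc, Ctgf, Cyr61, Postn and Sparc fell, Thbs2, Spp1 and Mgp rose, and Thbs1 and Fn1 were not called. A gene was called at an adjusted p below 0.05 in edgeR's quasi-likelihood test, with Benjamini-Hochberg adjustment over 14461 genes. In the same comparison 33.3% of all genes were called, 16.5% higher and 16.8% lower. Among the 2151 genes with a mean of at least 100 CPM, the class to which all 10 belong, 44.6% were called. The 10 genes were chosen with earlier results of these data known, so such shares, here and below, are no test of the group. The libraries of JGT 500 and vehicle did not overlap for 9 of the 10, against 40.1% of all genes. The median absolute log2 change of the 10 was 0.44. Their median signed change was -0.09, beside 0.01 for all genes tested.

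**Figure D2:**
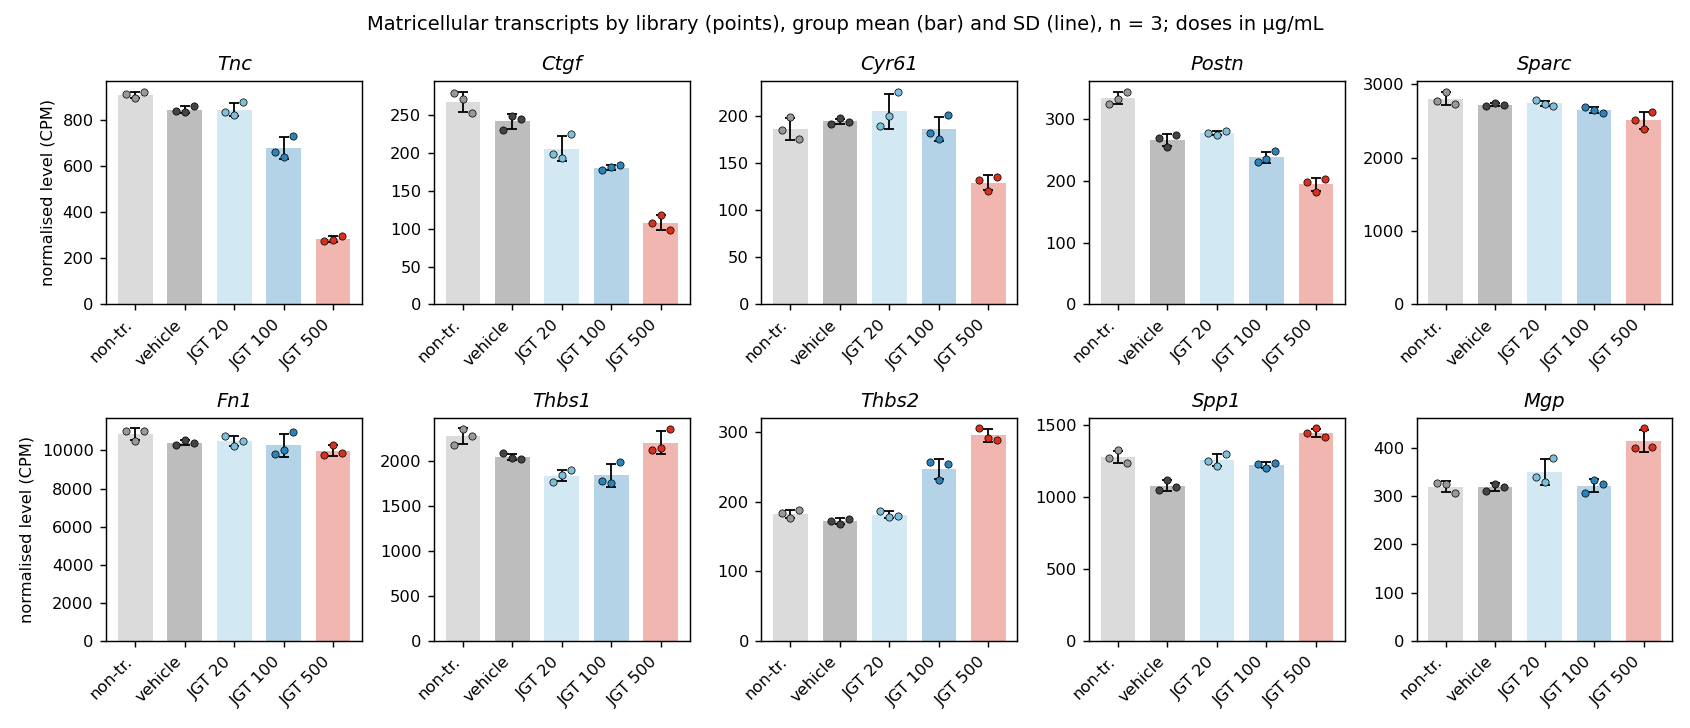
Normalised level in CPM (vertical axis from 0, a scale per gene) in non-treated, vehicle and JGT groups; points are libraries, bars group means and lines the SD (n = 3). The JGT 500 points of Tnc, Ctgf, Cyr61 and Postn lie below all other points, and those of Thbs2, Spp1 and Mgp lie above all others.

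Tnc fell most. Tenascin-C is a large oligomeric glycoprotein that weakens cell attachment to fibronectin and marks regenerating muscle and its tendon junctions. The gene lies on the minus strand at chr4:63959785-64047015 of GRCm38 (ENSMUSG00000028364.15), with 4 annotated transcripts. Its exons share 176 bases with 8030451A03Rik on the opposite strand, which held 10 to 47 counts a library against 8185 to 30209 for Tnc. Its normalised level was 910, 893 and 919 CPM in the non-treated libraries and 839, 831 and 859 CPM with vehicle. JGT 20 gave 834, 820 and 875 CPM, JGT 100 gave 661, 637 and 729 CPM, and JGT 500 gave 273, 279 and 298 CPM. The JGT 20 libraries overlapped vehicle, every JGT 100 library lay below both, and every JGT 500 library lay below every JGT 100 library. At JGT 500 the log2 difference from vehicle was -1.57 ± 0.0465 (SE), a level 2.98-fold lower (adjusted p = 1.44e-15, edgeR). JGT 100 lay -0.32 ± 0.0453 below vehicle (adjusted p = 0.000202), and the step from JGT 100 to JGT 500 was -1.25 ± 0.0462 (adjusted p = 1e-13). At JGT 20 the difference from vehicle was 0.00, with a 95% interval from -0.10 to 0.10.

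Ctgf and Cyr61 encode the CCN proteins CCN2 and CCN1, heparin- and integrin-binding signalling proteins that are the textbook early targets of YAP and TAZ. Ctgf, now named Ccn2, lies on the plus strand at chr10:24595442-24598683, and Cyr61, now Ccn1, on the minus strand at chr3:145646976-145649981 (both GRCm38). Ctgf stood at 279, 271 and 254 CPM in non-treated and 231, 250 and 246 CPM in vehicle libraries. It measured 198, 194 and 225 CPM at JGT 20, 177, 181 and 184 CPM at JGT 100, and 108, 118 and 98.8 CPM at JGT 500. Each dose group lay below the controls without overlap, and the JGT groups did not overlap each other. At JGT 500 Ctgf was 2.24-fold lower than vehicle (log2 -1.16 ± 0.0623, adjusted p = 1.58e-10, edgeR). At JGT 100 the difference was -0.42 ± 0.061 (adjusted p = 0.000542). At JGT 20 it was -0.23 ± 0.0609 and was not called by edgeR (adjusted p = 0.132), though DESeq2 called it (adjusted p = 0.0294), as did edgeR without JGT 20 replicate 3 (adjusted p = 0.0378). An exon of Gm15270 on the opposite strand shares 665 bases with Ctgf, but held 6 to 67 counts a library against 2802 to 7877 for Ctgf.

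Cyr61 kept its level through the lower doses. It measured 185, 199 and 176 CPM in non-treated, 192, 198 and 193 CPM in vehicle, 189, 200 and 226 CPM in JGT 20 and 182, 176 and 201 CPM in JGT 100 libraries, and these 4 groups overlapped. The JGT 500 libraries, at 132, 120 and 135 CPM, lay below all of them. The fall against vehicle was 1.5-fold (log2 -0.59 ± 0.0663, adjusted p = 3.71e-06, edgeR), and against JGT 100 it was -0.53 ± 0.066 (adjusted p = 2.45e-05). Its difference from vehicle at JGT 100 was -0.06, with a 95% interval from -0.21 to 0.09. Ctgf was thus called at JGT 100 and JGT 500 and Cyr61 at JGT 500 of the 3 doses, and whether the responses of the 2 genes differ was not tested.

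Postn encodes periostin, a fasciclin-domain protein that is induced by TGF-beta and promotes collagen cross-linking. It lies on the plus strand at chr3:54361109-54391037. Its level was 325, 333 and 345 CPM in non-treated and 269, 255 and 274 CPM in vehicle libraries, and it measured 278, 274 and 281 CPM at JGT 20, 231, 235 and 249 CPM at JGT 100 and 198, 182 and 203 CPM at JGT 500. The non-treated libraries were the highest and the JGT 500 libraries the lowest, with no overlap between them and any other group. At JGT 500 Postn was 1.37-fold lower than vehicle (log2 -0.45 ± 0.0424, adjusted p = 5.28e-08, edgeR) and 1.72-fold lower than non-treated (adjusted p = 1.07e-11). The JGT 100 fall of -0.16 ± 0.0421 was small (adjusted p = 0.0353), and it missed the threshold without vehicle replicate 1 or 3 or JGT 100 replicate 1 or 2, with adjusted p of 0.12, 0.175, 0.163 and 0.137.

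Sparc encodes a collagen-binding, calcium-binding glycoprotein needed for fibril assembly and lies on the minus strand at chr11:55394500-55423183. It stood at 2702, 2747 and 2723 CPM in vehicle and 2507, 2395 and 2619 CPM in JGT 500 libraries. The groups did not overlap, but the fall was slight (log2 -0.12 ± 0.0387, 1.09-fold, adjusted p = 0.0219, edgeR). It missed the threshold when scaled by library totals alone (adjusted p = 0.0598), with only those 2 groups in the fit (0.134), and without vehicle replicate 2 (0.0727) or 3 (0.05).

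The promoters of Tnc and Cyr61 are shown because both genes fell at JGT 500, Tnc the more, and Cyr61 holds the single match found among the motifs searched here. Each is the 250 bases before the RefSeq transcription start (GRCm38.p6) nearest the start of the annotated gene. It is read 5′ to 3′ on the gene's strand. The Tnc promoter is at chr4:64047016-64047265 and that of Cyr61 at chr3:145649986-145650235, both on the minus strand. Capitals mark the TEAD motif, which occurs here in its reverse-complement form.
Tnc: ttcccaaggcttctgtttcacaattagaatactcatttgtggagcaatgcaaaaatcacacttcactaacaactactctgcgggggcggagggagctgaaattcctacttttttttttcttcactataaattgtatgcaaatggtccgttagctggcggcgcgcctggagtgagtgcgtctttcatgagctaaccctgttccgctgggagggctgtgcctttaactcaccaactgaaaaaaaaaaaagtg
Cyr61: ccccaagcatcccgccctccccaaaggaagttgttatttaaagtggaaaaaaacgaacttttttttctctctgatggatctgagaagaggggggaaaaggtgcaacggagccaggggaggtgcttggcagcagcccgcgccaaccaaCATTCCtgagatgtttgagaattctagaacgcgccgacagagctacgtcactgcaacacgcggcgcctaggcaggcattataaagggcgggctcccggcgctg
The TEAD motif GGAATG, searched on both strands, was present in 1 of the 6 members with a promoter in the RefSeq table (Tnc, Postn, Thbs2, Sparc, Spp1 and Cyr61), namely Cyr61, where it begins 103 bases before the start. It occurred in 12.6% of 32851 promoters of the same length, which count every promoter of a gene. Tnc, Postn and Spp1 have 2 promoters each in RefSeq, and only the promoter nearest the annotated gene's start was searched. The AP-1 motif TGANTCA and the CArG box, bound by serum response factor, had no match in the 6 promoters, against 6.75% and 1.47% of all promoters. A match describes these letters only, and the absence of one says nothing about the factor. The RefSeq start of Sparc lies 3103 bases from the start of the annotated gene.

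Thbs2 rose most. Thrombospondin 2 is a trimeric glycoprotein that limits vessel growth and clears matrix metalloproteinase from the pericellular space. The gene lies on the minus strand at chr17:14665500-14694235 (ENSMUSG00000023885.9). It measured 183, 176 and 188 CPM in non-treated, 173, 168 and 176 CPM in vehicle and 187, 178 and 179 CPM in JGT 20 libraries. At JGT 100 it reached 257, 231 and 254 CPM and at JGT 500 305, 292 and 288 CPM. All JGT 100 libraries lay above the 9 lower ones, and all JGT 500 libraries above those of JGT 100. The rise over vehicle was 1.43-fold at JGT 100 (log2 0.52 ± 0.0414, adjusted p = 1.68e-07, edgeR) and 1.71-fold at JGT 500 (0.78 ± 0.0415, adjusted p = 1.22e-11). The step from JGT 100 to JGT 500 was 0.26 ± 0.041 (adjusted p = 0.000128), smaller than the 0.44 ± 0.0413 between JGT 20 and JGT 100. Tnc had the opposite spacing, with its larger step at the top dose. The difference between the steps was not tested.

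Spp1 encodes osteopontin, an RGD-containing phosphoprotein and ligand of integrins and CD44 that is made by myoblasts and inflamed muscle. It lies on the plus strand at chr5:104435118-104441050, and shares 309 exon bases with Gm42793 on the same strand, for which no counts were used here. Its level was 1274, 1324 and 1239 CPM in non-treated but 1052, 1120 and 1067 CPM in vehicle libraries. JGT 20 gave 1252, 1214 and 1301 CPM, JGT 100 gave 1227, 1200 and 1239 CPM, and JGT 500 gave 1443, 1477 and 1420 CPM. The vehicle libraries were the lowest of all and the JGT 500 libraries the highest, while JGT 20 and JGT 100 overlapped non-treated. Over vehicle, Spp1 rose 1.34-fold at JGT 500 (log2 0.42 ± 0.0387, adjusted p = 4.21e-08, edgeR). Over non-treated the rise was 0.18 (adjusted p = 0.00132). The rises at JGT 20 (0.22 ± 0.0386, adjusted p = 0.0123) and JGT 100 (0.18 ± 0.0386, adjusted p = 0.00889) turned into -0.027 and -0.065 against non-treated, with adjusted p of 0.814 and 0.347.

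Mgp encodes a small vitamin K dependent protein that binds calcium and BMP ligands and keeps soft tissue from mineralising. It lies on the minus strand at chr6:136872435-136875823. The level was 327, 326 and 305 CPM in non-treated, 310, 326 and 318 CPM in vehicle, 340, 328 and 380 CPM in JGT 20, 306, 332 and 326 CPM in JGT 100 and 400, 440 and 401 CPM in JGT 500 libraries. The JGT 500 libraries lay above all the others, and JGT 20 replicate 3 came nearest to them. At JGT 500 Mgp was 1.3-fold above vehicle (log2 0.38 ± 0.0514, adjusted p = 9.98e-06, edgeR) and 1.29-fold above JGT 100 (adjusted p = 3.29e-05).

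The promoters of Thbs2 and Spp1 are given for the members with the largest rises over vehicle at JGT 500. Over non-treated Mgp rose more than Spp1, by 0.37 against 0.18, but Mgp had no promoter in the RefSeq table. Both sequences are the 250 bases before the RefSeq start (GRCm38.p6) nearest the start of the annotated gene. That of Thbs2 is at chr17:14694263-14694512 on the minus strand and that of Spp1 at chr5:104434861-104435110 on the plus strand. Neither held any of the 3 motifs, so no letters are in capitals.
Thbs2: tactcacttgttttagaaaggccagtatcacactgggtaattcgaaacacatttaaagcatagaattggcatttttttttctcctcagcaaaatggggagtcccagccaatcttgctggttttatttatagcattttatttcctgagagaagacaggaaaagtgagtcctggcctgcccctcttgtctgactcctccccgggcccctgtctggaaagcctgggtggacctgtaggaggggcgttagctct
Spp1: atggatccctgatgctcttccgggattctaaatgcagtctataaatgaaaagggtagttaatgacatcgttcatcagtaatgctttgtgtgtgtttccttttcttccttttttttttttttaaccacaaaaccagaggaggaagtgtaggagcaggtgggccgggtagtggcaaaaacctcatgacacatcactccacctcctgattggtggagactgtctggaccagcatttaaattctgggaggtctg

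Thbs1 and Fn1 were not called between JGT 500 and vehicle. Thrombospondin 1, the close relative of thrombospondin 2, activates latent TGF-beta and binds CD47 and CD36. Its gene lies on the plus strand at chr2:118111876-118127133. Thbs1 stood at 2188, 2364 and 2285 CPM in non-treated and 2093, 2036 and 2022 CPM in vehicle libraries, then at 1776, 1844 and 1906 CPM with JGT 20, 1784, 1761 and 1994 CPM with JGT 100 and 2127, 2144 and 2359 CPM with JGT 500. The 2 lower doses lay below vehicle and the top dose above it, without overlap. None of the 3 differences from vehicle was called: -0.15 at JGT 20 (adjusted p = 0.249), -0.15 at JGT 100 (0.106) and 0.11 at JGT 500 (0.107), the last with a 95% interval from -0.0045 to 0.22. With only the 2 groups in the fit, Thbs1 was called lower at JGT 20 (adjusted p = 0.0191) and JGT 100 (0.0178), and without JGT 100 replicate 3 it was called at JGT 100 (0.0269). Between doses, Thbs1 rose by 0.26 ± 0.0505 from JGT 100 to JGT 500 (adjusted p = 0.000986, edgeR) and by 0.26 ± 0.0505 from JGT 20 (adjusted p = 0.000599). Against non-treated, JGT 20 and JGT 100 were lower by -0.31 and -0.30 (adjusted p = 0.0015 and 0.000424) and JGT 500 differed by -0.04 (0.545).

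Fn1, on the minus strand at chr1:71585520-71653200, encodes fibronectin and was called in none of the 7 comparisons made here. It measured 11035, 10506 and 11024 CPM in non-treated, 10284, 10551 and 10372 CPM in vehicle, 10765, 10245 and 10498 CPM in JGT 20, 9819, 10014 and 10959 CPM in JGT 100 and 9786, 10308 and 9855 CPM in JGT 500 libraries. The JGT 500 and vehicle libraries overlapped, and the JGT 500 difference from vehicle was -0.06 ± 0.0454 (adjusted p = 0.338, edgeR) with a 95% interval from -0.16 to 0.04. Against non-treated it was -0.12 and was called (adjusted p = 0.0482).

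Between the controls, 2 of the 10 transcripts were lower in vehicle than in non-treated cultures, beside 1.31% of genes overall (0.754% lower, 0.553% higher) and 2.88% of those of at least 100 CPM. The groups did not overlap for 6 of the 10, against 26.8% of all genes. Spp1 fell by 0.24 on the log2 scale (SE 0.0386, adjusted p = 0.00424, edgeR) and Postn by 0.33 (SE 0.0421, adjusted p = 0.000911). Neither vehicle group overlapped its non-treated group. Thbs1 and Ctgf were lower in every vehicle library too, by -0.15 and -0.15, without being called (adjusted p = 0.134 and 0.239, edgeR). The same held for Tnc and Thbs2, at -0.11 and -0.08 (adjusted p = 0.247 and 0.329). With only these 2 groups in the fit, 5 of the 10 were called lower.

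JGT 20 was followed by 1 call among the 10 against vehicle, the rise of Spp1 described above, beside 0.325% of genes overall (0.173% higher, 0.152% lower) and 0.79% of the genes of at least 100 CPM. That call was lost without vehicle replicate 1 or 3 or JGT 20 replicate 1 or 3, with adjusted p from 0.0572 to 0.115. At JGT 100, Thbs2 and Spp1 rose and Tnc, Ctgf and Postn fell, which is 5 of 10 beside 4.31% of all genes, 2.09% higher and 2.22% lower. Among genes of at least 100 CPM, 6.51% were called at JGT 100. The groups did not overlap for 6 of the 10 at JGT 20 (20.9% of all genes) and 7 at JGT 100 (26.3%). Spp1 missed the threshold at JGT 100 without vehicle replicate 1 (adjusted p = 0.054) or 3 (0.0603).

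The non-treated libraries gave a second reference, which shares the JGT libraries with the comparisons above. Against them, 0 of the 10 were higher and 3 lower at JGT 20 (Postn, Thbs1 and Ctgf), where 3.11% of all genes were called, 1.19% higher and 1.92% lower. At JGT 100, Thbs2 was higher and Tnc, Postn, Thbs1 and Ctgf were lower, where 9.13% were called, 4.29% higher and 4.83% lower. At JGT 500, Thbs2, Spp1 and Mgp were higher and Tnc, Ctgf, Cyr61, Postn, Sparc and Fn1 lower, where 31.8% were called, 16.3% higher and 15.5% lower. Tnc was 3.20-fold below non-treated at that dose (adjusted p = 3.66e-16, edgeR).

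**Figure D3:**
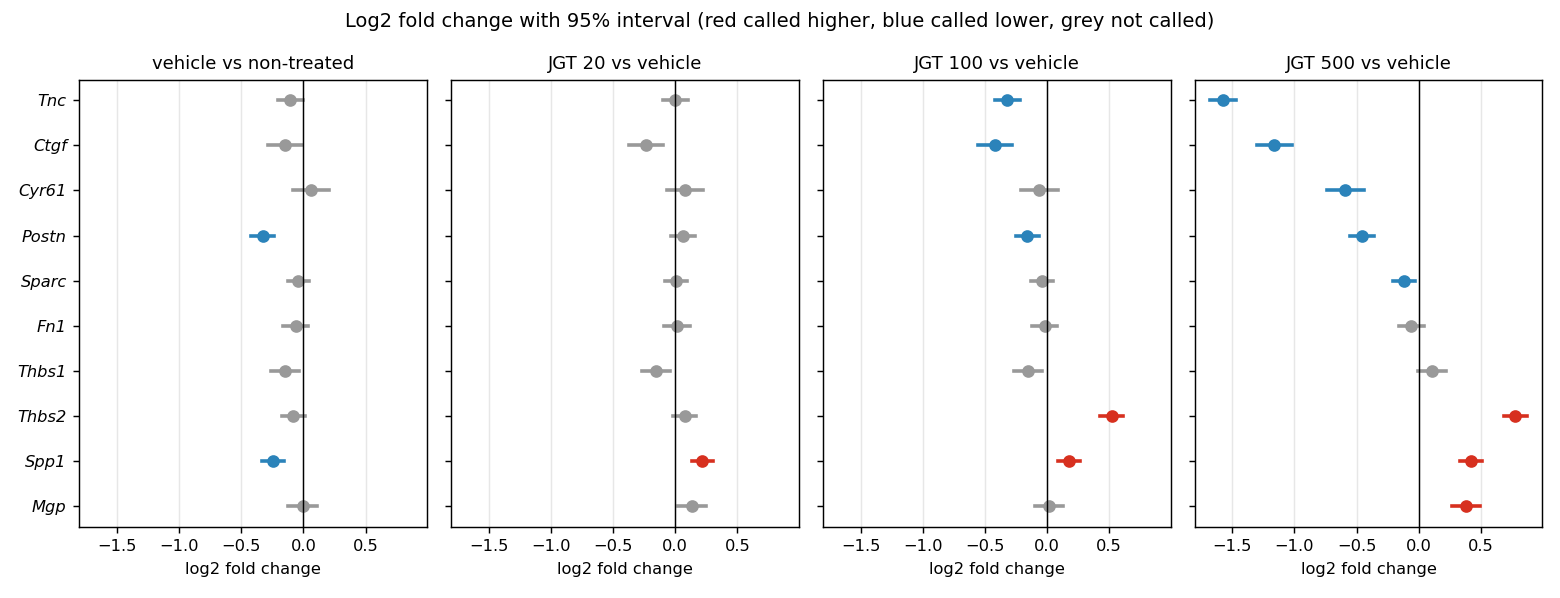
Log2 fold change (horizontal axis) of each gene in the 4 comparisons with a control, as the estimate with its 95% interval; red is called higher, blue called lower and grey not called. In the JGT 500 panel Tnc lies at -1.57 and Thbs2 at 0.78, and at JGT 20 Spp1 is the only gene in colour.

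The doses can be compared within their own series of sample codes. The DMSO from the stock would rise with the dose, however, from 0.004% at JGT 20 to 0.1% at JGT 500. Within that series, differences between doses therefore cannot be told apart from differences in DMSO. Vehicle against non-treated, a contrast of 0.1% DMSO in the other series, gave -0.11 for Tnc and -0.08 for Thbs2, neither called. In that contrast Spp1 and Postn were called lower, at -0.24 and -0.33. The part of DMSO in the dose differences was not tested. From JGT 20 to JGT 100, Thbs2 rose and Tnc and Postn fell, beside 0.429% of genes overall (0.297% higher, 0.131% lower) and 0.697% of those of at least 100 CPM. Tnc fell by 0.32 (SE 0.0453, adjusted p = 0.00134, edgeR). The fall of Postn, -0.22 ± 0.0421 (adjusted p = 0.0175), was lost in 5 of the 6 fits that each left out a library of these groups, all but that without JGT 100 replicate 3, with adjusted p from 0.0662 to 0.158. From JGT 100 to JGT 500, 4 genes rose (Thbs1, Thbs2, Spp1 and Mgp) and 4 fell (Tnc, Ctgf, Cyr61 and Postn), beside 19.7% of genes overall (9.05% higher, 10.7% lower) and 29.4% of those of at least 100 CPM. From JGT 20 to JGT 500 the same 4 rose and Sparc joined the 4 that fell, leaving Fn1 uncalled, beside 23.3% of genes overall (11.1% higher, 12.2% lower) and 31.7% of those of at least 100 CPM. The groups did not overlap for 5 of the 10 between JGT 20 and JGT 100 (15.8% of all genes), 8 between JGT 100 and JGT 500 (29.5%) and 9 between JGT 20 and JGT 500 (32.5%). Sparc fell by 0.13 (SE 0.0387, adjusted p = 0.0211), and missed the threshold when scaled by library totals (0.0506), with only these 2 groups in the fit (0.152) and without JGT 20 replicate 1 (0.0693).

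Replicates of a group were tight. Among the 10 genes the coefficient of variation within a group ran from 0.842% for Sparc in vehicle to 9.13% for Cyr61 in JGT 20. Within JGT 500, replicate 2 was the lowest for Sparc, Postn and Cyr61 and the highest for Ctgf, Spp1, Mgp and Fn1. Without it the JGT 500 difference from vehicle was -1.57 for Tnc, -1.24 for Ctgf, -0.55 for Cyr61, -0.42 for Postn, 0.78 for Thbs2, 0.40 for Spp1 and 0.33 for Mgp.

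Across the 15 libraries, the genes whose log2 level followed Tnc most closely among 9961 genes were Fstl1 (Pearson r = 0.991), Col8a1 (0.989), Dlgap5 (0.988) and Mcm5 (0.988). These correlations run over 5 groups that differ in dose, so they describe a shared order of groups. Fstl1 encodes a secreted follistatin-like glycoprotein, Col8a1 a short-chain collagen, Dlgap5 a spindle protein and Mcm5 a subunit of the replicative helicase. Thbs2 was followed most closely by Rnaset2a (0.985), Pi15 (0.975), Lpl (0.971) and Slc5a5 (0.971), of which Lpl encodes lipoprotein lipase and Slc5a5 the sodium iodide symporter. At JGT 500 the log2 difference from vehicle was -1.33 ± 0.0646 for Mcm5 and 1.5 ± 0.0539 for Lpl (adjusted p = 2.49e-12 and 2.64e-14, edgeR).

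The remaining matricellular and related matrix genes moved in both directions at JGT 500. Of 32 listed, 22 were tested, with a median log2 change of -0.29. Against vehicle 6 rose, 11 fell and 5 were not called (all genes: 16.5% higher, 16.8% lower). The 4 with the smallest p all fell. Smoc2, a relative of Sparc, fell to 5.06 CPM (log2 -1.46 ± 0.0992, adjusted p = 4.3e-10, edgeR). Wisp1 and Nov, which encode CCN proteins like Ctgf and Cyr61, fell from 403 to 284 CPM (-0.51 ± 0.0351, adjusted p = 6.04e-10) and from 21.8 to 14.9 CPM (-0.54 ± 0.071, adjusted p = 5.46e-06). The CCN gene Wisp2, chosen after its values were seen, went the other way between doses. It rose from 13.5 CPM at JGT 20 to 17.7 CPM at JGT 500 (0.38 ± 0.0666, adjusted p = 0.000231, edgeR). Dmp1, an acidic phosphoprotein of the same family as osteopontin, fell from 4.50 to 1.88 CPM (-1.25 ± 0.143), whereas Spp1 rose. At JGT 100 4 of the 22 fell, Smoc2, Wisp1 and Nov among them, and 0 rose (all genes: 2.22% lower, 2.09% higher).

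Receptors were tested for 24 of 27 genes, with a median of -0.06 at JGT 500. Of these, 5 rose, 8 fell and 11 were not called (all genes: 16.5% higher, 16.8% lower). The hyaluronan and osteopontin receptor Cd44 fell from 400 to 264 CPM (log2 -0.60 ± 0.0369, adjusted p = 1.13e-10, edgeR). Itga11, a collagen-binding integrin chain, fell from 21.7 to 10.7 CPM (-1.02 ± 0.0695). Itga4 fell by 0.86 and Itga5, the fibronectin receptor chain, by 0.35 on the log2 scale. Chosen after its values were seen, Itgb5, a vitronectin receptor chain, rose from 254 to 404 CPM (0.67). The receptors of the thrombospondins, Cd36 and Cd47, also chosen after their values were seen, differed by -0.12 and -0.04 and were not called. From JGT 20 to JGT 500 Cd36 was called lower at -0.20 (adjusted p = 0.0208, edgeR), though its libraries overlapped. Cd47 differed by -0.08 there and was not called.

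Beyond Ctgf and Cyr61, the YAP and TAZ target signature did not move in a single direction. Of its 20 other genes, all tested, 5 rose, 5 fell and 10 were not called at JGT 500 (all genes: 16.5% higher, 16.8% lower). Their median was 0.02. Igfbp3, an IGF binding protein, fell from 15.1 to 4.69 CPM (log2 -1.69 ± 0.0843, adjusted p = 4.29e-12, edgeR) and Tgfb2, a TGF-beta ligand, from 75.8 to 53.0 CPM (-0.51 ± 0.0442). The stress gene Gadd45a rose from 193 to 333 CPM (0.79 ± 0.0566) and the tissue factor gene F3 from 4.41 to 7.01 CPM (0.67 ± 0.102). Ankrd1, a widely used readout of the pathway named after its values were seen, differed by 0.05 and was not called. Of 14 pathway factors 5 fell and 1 rose, beside the same shares of all genes, with a median of -0.01. Tead3 fell by 0.49, Tead1 by 0.37, the co-factor Vgll2 by 0.67 and the kinase Lats1 by 0.13 on the log2 scale. The 1 that rose was Yap1, named after its values were seen, at 0.14.

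Of 21 tested TGF-beta pathway genes, 2 rose, 8 fell and 11 were not called at JGT 500 (all genes: 16.5% higher, 16.8% lower). Their median was -0.07. Besides Tgfb2, the feedback inhibitor gene Ldlrad4 fell from 21.5 to 15.8 CPM (log2 -0.44 ± 0.0626, adjusted p = 1.58e-05, edgeR). The co-receptor gene Tgfbr3 rose by 0.38 (SE 0.058, adjusted p = 3.81e-05). At JGT 100 Tgfb2 differed by -0.03 and was not called (adjusted p = 0.807).

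Genes of vitamin K dependent carboxylation and mineral deposition, the processes in which Mgp acts, split evenly at JGT 500, with a median of 0.00. Of 10 tested, 3 rose, 3 fell and 4 were not called (all genes: 16.5% higher, 16.8% lower). Phospho1, a phosphatase that starts mineral formation, rose from 80.3 to 113 CPM (log2 0.49 ± 0.0453, adjusted p = 5.16e-08, edgeR), and the phosphate-regulating peptidase gene Phex rose from 0.706 to 1.93 CPM (1.44 ± 0.205). Vkorc1l1, which recycles vitamin K, fell by 0.21 and the osteoblast factor gene Runx2 by 0.27. The bone genes Bglap, Alpl and Sp7 were too low to test.

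Fibronectin and matrix assembly genes were tested for 23 of 25, with a median of -0.20 at JGT 500. Of these, 4 rose, 11 fell and 8 were not called (all genes: 16.5% higher, 16.8% lower). All 3 tested chains of collagen VI, a filament around muscle fibres, fell: Col6a3 from 394 to 220 CPM (log2 -0.84 ± 0.0473, adjusted p = 2.62e-11, edgeR), Col6a2 by 0.52 and Col6a1 by 0.39. Loxl1, a matrix cross-linking oxidase, fell from 345 to 237 CPM (-0.54 ± 0.0383, adjusted p = 8.02e-10). Loxl1 was also lower at JGT 100, by -0.20 (adjusted p = 0.00321), where the collagen VI chains were not called. Lists overlap in several genes: Tgfb2, for example, stands in the YAP and TAZ signature and in the TGF-beta list. Marker lists of cell types share genes with these lists too. Among them are Runx2, in the mineral list, and Col1a1 and Col1a2, in the matrix assembly list.

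**Figure D4:**
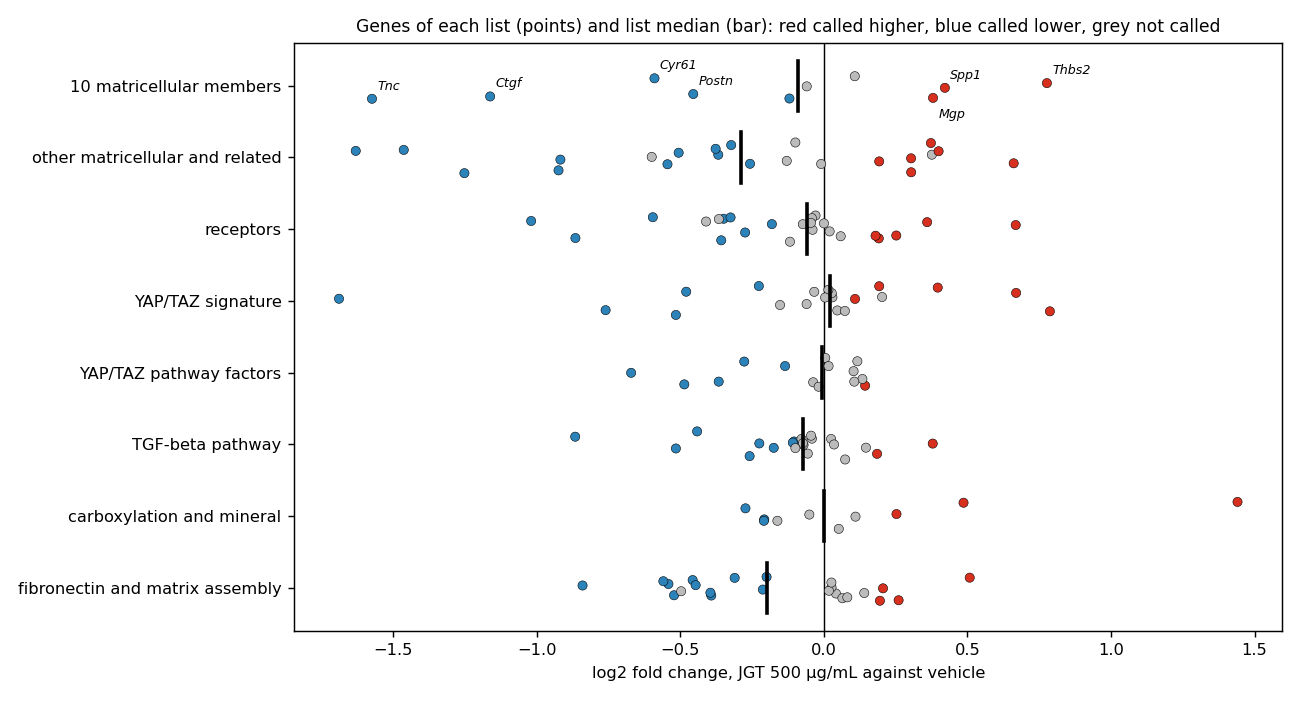
Log2 fold change of JGT 500 against vehicle (horizontal axis) for the 10 genes and for 7 lists of related genes; points are genes, coloured by call, and bars list medians. The members split to both sides of 0, and the matricellular relatives and matrix assembly genes have the lowest medians, -0.29 and -0.20.

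Markers of other cell states also moved. The counts below stand beside 16.5% of all genes higher and 16.8% lower at JGT 500 against vehicle. All 6 markers of dividing cells fell at JGT 500, with a median of -1.31, and their summed level went from 284 to 291 CPM in vehicle to 118 to 121 CPM. At JGT 100 5 of the 6 fell, beside 2.22% of all genes, and the sum was 228 to 234 CPM. The 4 tested markers of smooth muscle and myofibroblasts, among them Tagln (303 to 111 CPM), also fell. The summed level was 3022 to 3156 CPM in vehicle and 1814 to 1878 CPM at JGT 500. Acta2 made most of it, at 1690 to 2980 CPM over the 15 libraries. Fibroblast markers summed to 2922 to 3015 CPM in vehicle and 2046 to 2567 CPM at JGT 500, with 4 of 6 lower and 1 higher. Most of that sum came from Col1a1 (838 to 1579 CPM over the 15 libraries) and Col1a2 (1178 to 1731 CPM). The rest of the 7 listed were Pdgfra (14.1 to 28.5 CPM), Pi16 (2.94 to 5.55 CPM) and Dpt, Lum and Dpp4 (at or under 1.48 CPM). From JGT 20 to JGT 500 Pdgfra rose by 0.61 on the log2 scale, and 5 of the 6 tested fell. The sums for myotubes overlapped (18788 to 20044 and 18433 to 19863 CPM), with 3 of 9 markers higher and 4 lower. Of 8 markers of undifferentiated myoblasts and reserve cells, 4 fell (Vcam1, Cd34, Pax7 and Ncam1) and 1 rose (Spry1). Their sum went without overlap from 838 to 885 CPM in vehicle to 744 to 790 CPM. Ncam1 alone made most of it, at 595 to 721 CPM over the 15 libraries, so the sum mainly follows that gene. Osteoblast and chondrocyte markers also summed lower without overlap, 103 to 105 CPM in vehicle and 93.7 to 96.4 CPM at JGT 500, with Runx2 lower and Sox9 not called. Of 5 macrophage markers 3 were tested and 0 called, and their sums overlapped, at 1.62 to 2.50 CPM in vehicle and 1.22 to 1.85 CPM at JGT 500. The part of these cell states in the changes of the 10 genes was not tested.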

How the data were processed

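Messenger RNA of 15 C2C12 myotube libraries was sequenced as paired 100 bp reads with a strand-marking kit, per the labels' protocols. The authors deposited expected counts per gene symbol in a single table. The submitters' processing notes name RSEM 1.3.3, STAR 2.7.3a, Trim Galore 0.6.5 and FastQC 0.11.9. The annotation and strand option of the counting were not given in the sources used here, and reads of overlapping genes, on the same or opposite strands, may be shared. Of the values, 9.34% were not whole (tolerance 0.005), and all were rounded before testing.

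The counts were tested with edgeR 4.0.16 (R 4.3.3, limma 3.58.1): low-count filter by expression, TMM scaling with factors from 0.988 to 1.02, and a robust quasi-likelihood F test, two-sided, with all 15 libraries in 1 fit (10 residual degrees of freedom). Adjusted p is by Benjamini-Hochberg over 14461 genes, called below 0.05. Levels are CPM on TMM-scaled totals, except that marker sums and ranges of single markers over all libraries use library totals without TMM. The SE of a log2 difference is its size divided by the square root of F, and 95% intervals use 10 degrees of freedom. The test itself also shares information on spread among genes, so these intervals are wider than its p-values imply. For Thbs1 at JGT 500 against vehicle the interval includes 0, although the unadjusted p was 0.0451 (edgeR). Gene positions are from GENCODE M21 (GRCm38), with Ctgf and Cyr61 matched to Ccn2 and Ccn1.

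The 10 members and all lists were chosen with earlier results of these data known. Of each list, the 4 genes with the smallest p between JGT 500 and vehicle are named, with the 4 genes of highest Pearson correlation to Tnc and to Thbs2 (mean of at least 5 CPM), and any other gene is said to be chosen after its values were seen. A gene that this rule names is not reported here. Markers of cell types were listed likewise. The code was tested on simulated data. Alternatives were DESeq2 1.42.0, other scalings and filters, fits on only the groups compared, the other control, a replicate block and leaving out each library. Same-numbered JGT 100 and JGT 500 libraries deviated together (correlations 0.169, 0.264 and 0.274), and a fit of these groups with the number as a block was added. In the other pairs of groups the correlations were not all above 0.1. Same-numbered JGT 20 and JGT 500 libraries gave -0.467, -0.571 and 0.208, while JGT 20 replicate 1 and JGT 500 replicate 2 gave 0.604. Whether the numbers mark pairs is therefore unknown.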

Additional observations from a re-analysis of the deposited data

How the results depend on the processing

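Of 70 results for single genes (10 genes in 7 comparisons), 46 kept their direction and their side of the threshold under every alternative run. Of 950 alternative values, 890 did so, 22 fell short of the threshold, 12 newly passed it and 26 changed sign, 23 of them uncalled before and after. The 3 others came from non-treated in place of vehicle: Postn at JGT 20 became -0.27, and Spp1 became -0.027 at JGT 20 and -0.065 at JGT 100. That control also turned the uncalled Tnc (-0.106), Thbs2 (-0.0065), Sparc (-0.0344) and Fn1 (-0.0476) at JGT 20 and Thbs1 (-0.0444) at JGT 500. Tnc at JGT 20 also became -0.000296 with DESeq2 size factors, -0.000257 in DESeq2 and -0.000434 with the replicate block, and Thbs1 from JGT 20 to JGT 100 became -0.0103 by library totals. Leaving out single libraries, the uncalled ranges that crossed 0 were -0.0403 to 0.0102 for Mgp between the controls and -0.0106 to 0.0493 for Mgp at JGT 100. They were -0.0272 to 0.0183 for Tnc, -0.00516 to 0.0167 for Sparc and -0.00613 to 0.0300 for Fn1 at JGT 20. Fn1 ranged from -0.0695 to 0.011 at JGT 100 and from -0.076 to 0.00463 between JGT 100 and JGT 500, and Thbs1 from -0.0549 to 0.0363 between JGT 20 and JGT 100. With that control, 0 of the 10 were called higher and 3 lower at JGT 20, and 1 was called higher at JGT 100. With only the 2 groups in the fit, 5 were lower in vehicle than in non-treated, and 1 was lower at JGT 20 than in vehicle. DESeq2 also called 1 lower at JGT 20. Leaving out each library gave 0 to 1 higher and 0 to 1 lower at JGT 20, 1 to 2 higher at JGT 100, and 1 to 2 lower from JGT 20 to JGT 100. The causes were not tested.

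With the replicate number as a block, the 10 genes gave the same counts of calls in all 7 comparisons, 3 higher and 5 lower at JGT 500 against vehicle. The fit with that block on JGT 100 and JGT 500 alone, added after seeing the data, gave 4 higher and 4 lower, as without the block.

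Over all genes, counts moved more. Fits on only the 2 groups called 479 higher and 552 lower in vehicle against non-treated (80 and 109 in the fit of all groups), 141 and 189 at JGT 20 (25 and 22), 665 and 704 at JGT 100 (302 and 321), 124 and 67 from JGT 20 to JGT 100 (43 and 19), 494 and 819 from JGT 100 to JGT 500 (1309 and 1544), and 839 and 1143 from JGT 20 to JGT 500 (1604 and 1765). DESeq2 called 138 and 188 in vehicle against non-treated, 45 and 59 at JGT 20, and 32 lower from JGT 20 to JGT 100. With no low-count filter, 179 were lower in vehicle than in non-treated, and 42 were higher at JGT 20 and 68 from JGT 20 to JGT 100. The added fit of JGT 100 and JGT 500 with the replicate block called 854 higher from JGT 100 to JGT 500. Leaving out any 1 library gave 10 to 35 higher and 21 to 53 lower in vehicle against non-treated, 9 to 18 and 7 to 18 at JGT 20, 135 to 189 and 178 to 224 at JGT 100, and 16 to 26 and 3 to 15 from JGT 20 to JGT 100. From JGT 100 to JGT 500 it gave 747 to 2339 and 1133 to 2650, and from JGT 20 to JGT 500 1107 to 2450 and 1425 to 2715, the highest of each without JGT 500 replicate 2. Against vehicle at JGT 500 it gave 1743 to 3049 and 1950 to 3274 (2387 and 2428 with all libraries). With 3 libraries a group, differences of about 0.1 on the log2 scale, as for Sparc, sat at the threshold in comparisons with JGT 500, whereas -0.23 for Ctgf was not called at JGT 20. The planned count of protein sequence features was not run because protein sequences were not used here.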
